A study of Ficus obtusifolia with 4 samples.

Results

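Transcripts that encode proteins which loosen, build or strengthen the plant cell wall were compared among gall and seed flowers of the fig Ficus obtusifolia. Members were all transcripts whose protein description contained, in upper or lower case, expansin, xyloglucan, cellulose synthase, endoglucanase, COBRA, extensin, beta-galactosidase or beta-xylosidase. These 8 words matched 116 of 54550 assembled transcripts. The rule used no measured value. The deposited table pairs each transcript with the description of its best protein matches in other species, so a name states similarity and not a tested function.

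All flowers came from the same recipient tree, and the 4 flower types have 1 sequenced library each, so there were no replicates. Receptive gall and receptive seed flowers came from bagged syconia (the closed fig inflorescences) that no wasp had entered. Pollinated gall and pollinated seed flowers came from syconia into which a lone foundress, the female of the pollinating wasp Pegoscapus hoffmeyerii, had been put 24 hours earlier. Position in the syconium alone separated the classes: the inner layer of florets, facing the cavity, went into the gall pools and the outer layer into the seed pools, without regard to floral form. Each library was a pool of many flowers from several syconia. Foundresses oviposit in gall flowers, so the pollinated gall pool also held wasp eggs, and no library held plant cells of a defined type.

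A growing plant cell is held by cellulose microfibrils embedded in a matrix of hemicelluloses and pectins. Cellulose synthase (CesA) subunits, assembled as rosettes in the plasma membrane, spin the microfibrils, and COBRA proteins, anchored to the outer face of that membrane, are needed for their ordered deposition in Arabidopsis. Xyloglucan, the main hemicellulose of many flowering plants, is built in the Golgi by glycosyltransferases and coats the microfibrils. Expansins loosen the contacts between these polymers without cutting them, and xyloglucan endotransglucosylase/hydrolases (XTH) cut and rejoin xyloglucan chains. Beta-galactosidases trim sugar side chains, and beta-xylosidases remove xylose from xylans and arabinoxylans. Endoglucanases cut beta-1,4-glucans, although the membrane-bound kind takes part in cellulose synthesis. Extensins are rod-like structural glycoproteins that become cross-linked in the wall.

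The members were sorted by description into 62 transcripts of wall loosening, 42 of wall synthesis, 9 extensins and 3 xyloglucan-specific endoglucanase inhibitors. The loosening classes held 19 expansins, 18 XTH, 15 beta-galactosidases, 7 endoglucanases and 3 beta-xylosidases. The synthesis classes held 14 cellulose synthase-like (Csl) transcripts, 11 cellulose synthases, 10 xyloglucan glycosyltransferases and 7 COBRA transcripts. Of the 9 extensins, 4 were described as pollen Ole e 1 allergen and extensin family proteins. Gene Ontology terms, which come from the same protein matches but were not used by the rule, fitted the names. Of 37 transcripts with the term cellulose biosynthetic process, 17 were members, as were 15 of 19 with xyloglucan:xyloglucosyl transferase activity, 23 of 219 with cell wall and 19 of 197 with apoplast. Members were long, with a median of 1519 bp against 449 bp for all transcripts, although 19 were shorter than 300 bp. Only 0.102% of their reads also matched other transcripts, against 1.77% for all transcripts.

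Mapped reads numbered between 11584069 in receptive seed and 58969477 in pollinated gall flowers, and a count of 0 allows up to 3 reads, an RPKM (mapped reads scaled to transcript length in kilobases and to the reads of the library) of 0.259 and 0.0509 on 1 kb in these libraries. Members took 1.08% and 0.521% of the reads in receptive gall and seed flowers and 0.951% and 0.780% in pollinated gall and seed flowers. Reads were found in every library for 92 members, and 7 members had none in either receptive library. Pollinated gall flowers alone had reads on 4 members, at most 15 each, against 11851 of all transcripts. These 4 were the endoglucanases Locus 40551, Locus 26530 and Locus 44311 and alpha-expansin 3 (Locus 43160). Transcripts described by the names of wasps, bees and ants took 794 RPM (reads per 1000000 mapped reads) in pollinated gall flowers and between 0.173 and 1.04 in the others. These were 498 transcripts matched by words of the description. The paper assigned many more transcripts of pollinated gall flowers to Hymenoptera, so this RPM covers only a part of the wasp reads. The part of wasp reads in the gall flower values was not tested.

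Pairs of libraries were compared by Kal's Z-test on RPKM (2-sided, Benjamini-Hochberg adjustment over all transcripts). A call needed an adjusted p under 0.05, a ratio of at least 2 and, in some library, an RPKM above 20. The minimum held for 56 members and for 10434 transcripts in all. With 1 library per flower type, such a test compares libraries and not conditions, and the spread between flowers, syconia or trees is not known. Ratios are given with exact 95% intervals that cover counting error only, since the reads carry no molecular identifiers and copies of the same molecule cannot be recognised. In pooled flowers, fewer cells of a type and less RNA per cell cannot be told apart.

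Receptive gall flowers carried more wall transcripts than receptive seed flowers before any wasp had entered. Of the members, 25 were called higher in gall flowers, against a background of 17.0% of the transcripts above the minimum, and 2 were called lower, against 15.1%. Those higher were 7 cellulose synthases, 7 beta-galactosidases, 3 XTH, 3 xyloglucan glycosyltransferases, 2 expansins, 2 extensins and 1 COBRA transcript. Both called lower were expansins. No Csl, endoglucanase or beta-xylosidase was called, of which 4, 1 and 3 were above the minimum. Over the 67 members with a mean RPKM above 5, the log2 ratio between gall and seed flowers had a median of 0.69, against -0.10 over 16403 transcripts with the same mean. It was 0.97 for synthesis and 0.57 for loosening. Among transcripts longer than 2000 bp the medians were 1.05 for members and 0.18 for all. With an exact test that assumes a coefficient of variation of 0.4 between samples, 8 of 109 members tested were called higher and 1 lower, against 2.92% and 1.01% of 40997 transcripts. Of these, 7 and 0 were also calls of the Z-test.

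**Figure D1:**
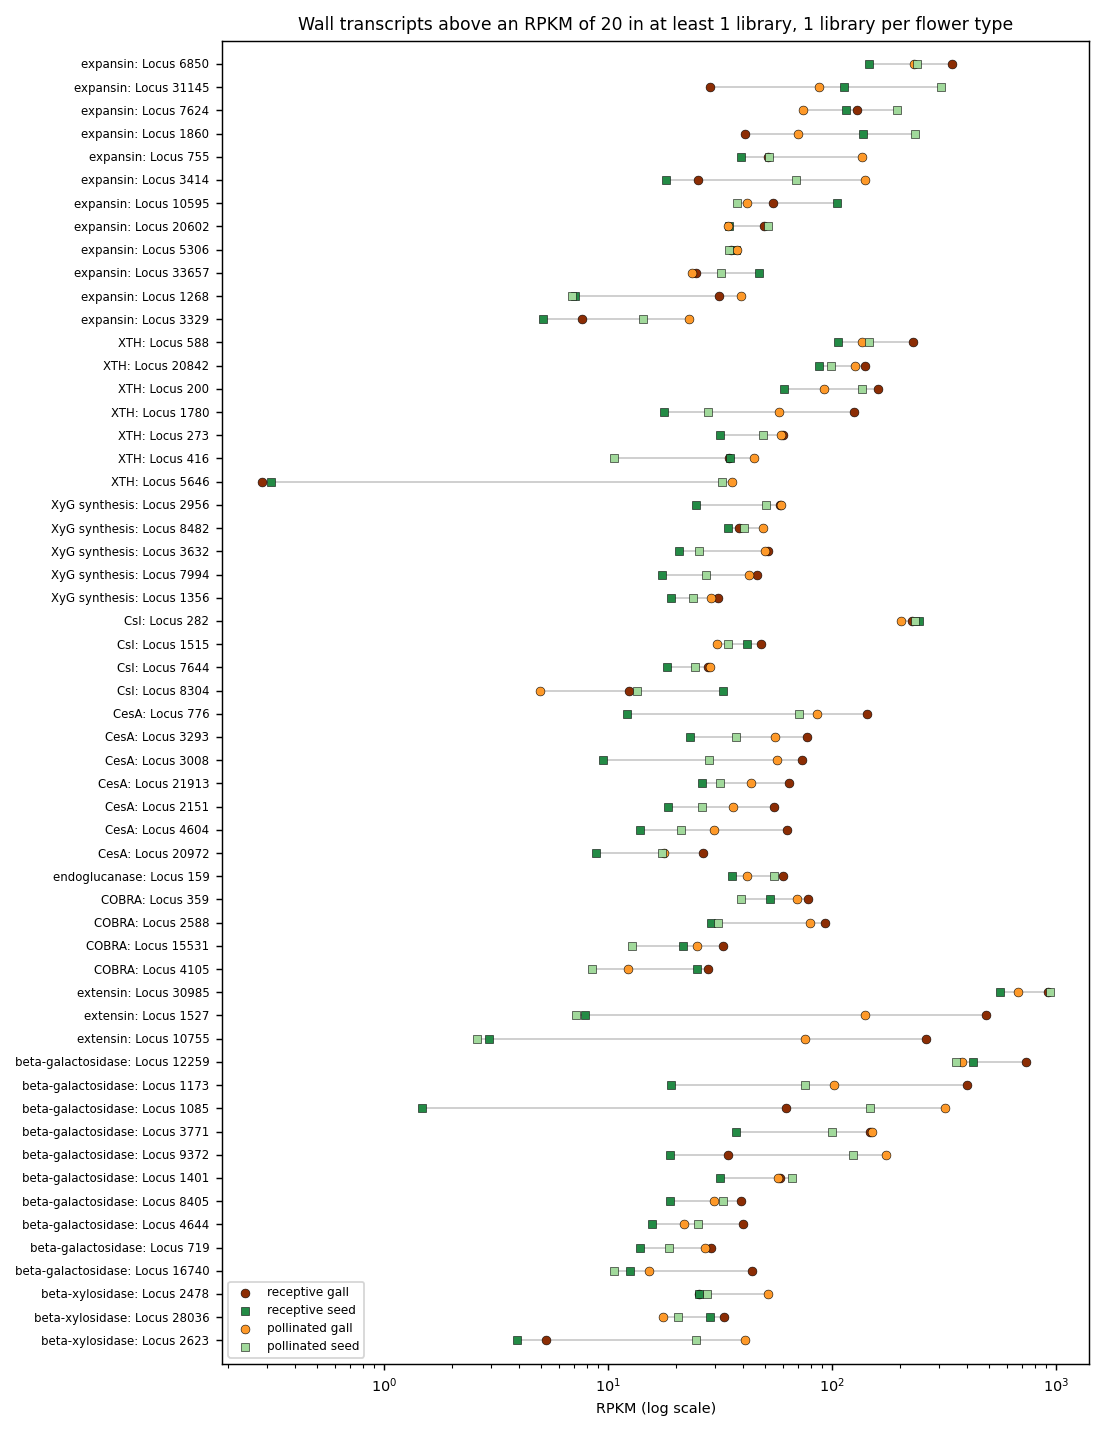
RPKM (log axis) of the 56 wall transcripts above an RPKM of 20 in at least 1 library, grouped by class, with 1 point per library and a grey line from the lowest to the highest library. Circles are gall and squares seed flowers, dark colours receptive and light colours pollinated, and receptive gall flowers are the highest library for 31 of the 56.

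The highest of the 4 libraries was receptive gall for 31 of these 56 members (55.4%), pollinated gall for 15 (26.8%), pollinated seed for 6 (10.7%) and receptive seed for 4 (7.14%). Among all 10434 transcripts above the minimum the shares were 22.0%, 17.6%, 21.4% and 39.0% in the same order. Receptive seed flowers were the lowest library for 34 of the 56 members. The 7 cellulose synthases were all highest in receptive gall and lowest in receptive seed flowers, and the 4 COBRA transcripts were all highest in receptive gall flowers. Expansins had no such order, with 5 of 12 highest in the pollinated gall library and 4 in the pollinated seed library.

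Cellulose synthases were the synthesis class with the widest gap between receptive flower types. Their summed reads came to 2080 and 532 RPM in receptive gall and seed flowers and 1368 and 985 in pollinated gall and seed flowers. The sum was 3.91 times higher (3.81 to 4.01) in receptive gall than in receptive seed flowers, and 7 of the 11 were called higher. The remaining 4 did not reach the RPKM minimum, and all 8 cellulose synthases with a mean RPKM above 5 had higher values in gall than in seed flowers at both stages.

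Locus 776, whose best match in the annotation of the study was catalytic subunit 1 of grapevine, had RPKM of 143 and 12.1 in receptive gall and seed flowers and 85.2 and 71.1 in pollinated gall and seed flowers. Receptive seed flowers stood apart from the other 3 libraries. The ratio of gall to seed flowers was 11.9 (10.7 to 13.1, adjusted p = 8.7e-30 by Kal's Z-test) before and 1.20 (1.16 to 1.24, not called) after foundress introduction. Subunit 1 belongs to the complex of the primary wall, the wall of expanding cells, in Arabidopsis. Locus 3008 had RPKM of 72.9, 9.47, 56.6 and 28.1 in the same order of libraries, and gall flowers were higher at both stages. Its ratio was 7.70 (adjusted p = 1.6e-13 by Kal's Z-test) in receptive and 2.02 (1.93 to 2.11, adjusted p = 0.050 by Kal's Z-test, just under the threshold) in pollinated flowers. Locus 3293, described as catalytic subunit 6, another primary wall subunit in Arabidopsis, had 77.2, 23.2, 55.2 and 37.0. Gall flowers were 3.33 times higher (3.13 to 3.55) when receptive, and the pollinated ratio of 1.49 was not called. Locus 4604, matched to catalytic subunit 8 of grapevine, had 62.7, 13.8, 29.7 and 21.1, with receptive gall flowers apart from the rest. Subunit 8 acts in the secondary wall in Arabidopsis, which is laid down after growth stops. The remaining 3, Locus 21913, Locus 2151 and Locus 20972, were 2.45 to 3.00 times higher in receptive gall than in receptive seed flowers.

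A list of xylem transcripts (laccases, xylogens and xylem proteinases, 22 transcripts) moved with the gall flowers too. It took 479 and 191 RPM in receptive gall and seed flowers and 532 and 250 in pollinated gall and seed flowers. Of the 4 above the RPKM minimum, 2 were called higher in gall flowers at each stage, against backgrounds of 17.0% and 6.87%. The part of this list in the cellulose synthase values was not tested. The 4 transcripts of xylan synthesis, the hemicellulose of secondary walls, had 360, 221, 316 and 217 RPM. Only 1 was called higher in receptive gall than in receptive seed flowers, near the background of 17.0%.

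Csl transcripts did not share the cellulose synthase pattern. Some of these relatives of cellulose synthase make other wall polysaccharides. The descriptions here named the types D, E, G or H or no type, and the products of these transcripts were not tested. Transcripts described as xyloglucan glycosyltransferases were counted in the xyloglucan class and not here. The Csl sum was 1228 and 1241 RPM in receptive gall and seed flowers and 1045 and 1146 in pollinated gall and seed flowers. The receptive gall to seed ratio was 0.989 (0.971 to 1.01). Of the 14 Csl transcripts, 4 were above the RPKM minimum, and none was called in any of the 4 comparisons. Most reads of the class came from Locus 282, described as Csl protein e6-like, with RPKM of 227, 245, 202 and 233, a narrow range over the 4 libraries. Locus 1515 had 48.0, 41.5, 30.6 and 34.2, and Locus 7644 had 27.9, 18.2, 28.3 and 24.4. Named here after their values were seen, Locus 8304 (h1-like), above the RPKM minimum in receptive seed flowers only, had 12.4, 32.4, 4.93 and 13.5, and Locus 3827 (e1), below the minimum, had 7.08, 1.50, 12.2 and 2.36. The former was higher in seed and the latter in gall flowers at both stages, and neither was called.

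COBRA transcripts were higher in gall flowers by a similar factor at both stages. The sum was 532 and 308 RPM in receptive gall and seed flowers and 433 and 219 in pollinated gall and seed flowers. The gall to seed ratio was 1.73 (1.67 to 1.79) in receptive and 1.98 (1.92 to 2.05) in pollinated flowers. Locus 2588 had RPKM of 92.4, 28.7, 79.9 and 30.8, and both gall libraries were above both seed libraries. It was called at both stages, with ratios of 3.22 (2.97 to 3.50) and 2.60 (2.45 to 2.75). Locus 359 had 78.0, 52.6, 69.4 and 39.1 and Locus 15531 had 32.5, 21.5, 24.8 and 12.7, with gall flowers higher at each stage in both but no call.

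Xyloglucan glycosyltransferases summed to 635, 331, 645 and 482 RPM in receptive gall, receptive seed, pollinated gall and pollinated seed flowers, so that receptive seed flowers were the low library. The ratio was 1.92 (1.86 to 1.98) in receptive and 1.34 (1.31 to 1.36) in pollinated flowers. Locus 2956, described as KATAMARI1-like, adds galactose to xyloglucan side chains. Its RPKM was 58.4, 24.6, 58.8 and 50.6, with the other 3 libraries close together, and the receptive ratio of 2.37 (2.20 to 2.56) was called. Xylosyltransferases attach the xylose from which each side chain starts. Locus 3632 had 51.5, 20.8, 50.0 and 25.5, and its receptive ratio of 2.48 (2.26 to 2.72) was called while the pollinated one of 1.96 was not. The other xylosyltransferase, Locus 8482, had 38.4, 34.3, 48.9 and 40.4 and was called nowhere. The third called was Locus 7994, a probable glycosyltransferase that was 2.64 times higher (2.44 to 2.85) in receptive gall flowers.

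**Figure D2:**
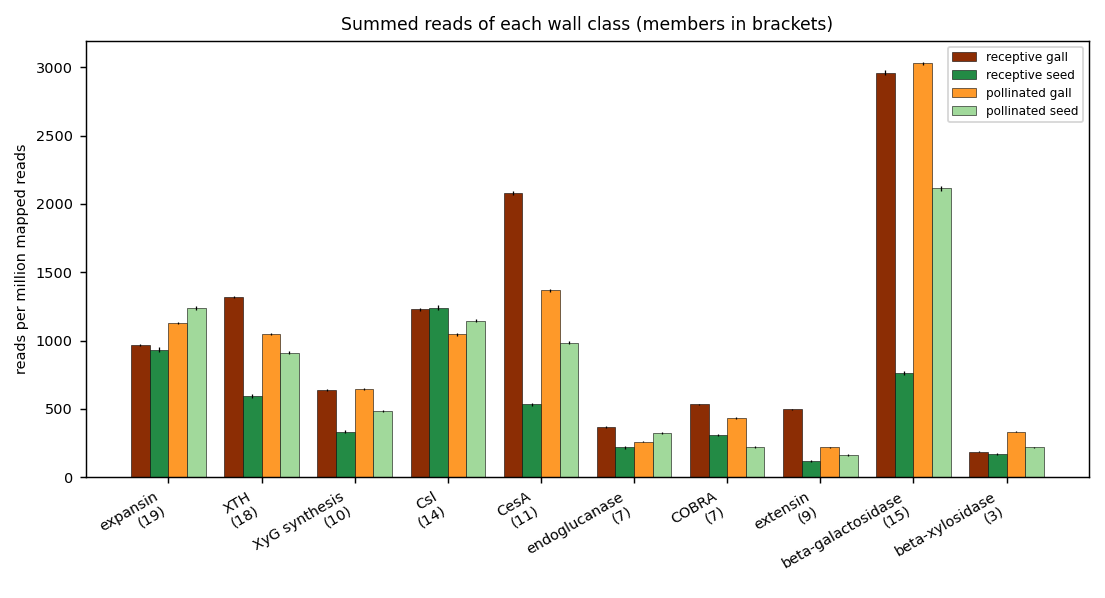
RPM summed over the members of each class, for the 4 libraries (bars), with counting error bars of 1.96 times the square root of the reads; the number of members is in brackets and the 3 inhibitors are left out. Receptive seed flowers had 532 RPM on cellulose synthases and 763 on beta-galactosidases, against 2080 and 2963 in receptive gall flowers, whereas expansins and Csl transcripts had between 934 and 1241 in every library.

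Among the loosening classes, beta-galactosidases had the widest gap between receptive flower types. They summed to 2963 and 763 RPM in receptive gall and seed flowers and 3029 and 2116 in pollinated gall and seed flowers. The receptive gall to seed ratio was 3.88 (3.80 to 3.97), and all 10 members with a mean RPKM above 5 had higher values in receptive gall flowers. After foundress introduction the ratio was 1.43 (1.42 to 1.45), with 1 call.

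Locus 1173, described as beta-galactosidase 3-like, had RPKM of 398 and 19.1 in receptive gall and seed flowers and 102 and 75.5 in pollinated gall and seed flowers. Receptive gall flowers were far above the rest and receptive seed flowers far below. The gall to seed ratio was 20.8 (19.2 to 22.6, adjusted p = 4.9e-91 by Kal's Z-test) in receptive and 1.35 (1.30 to 1.39, not called) in pollinated flowers. Locus 1085, beta-galactosidase protein 1, had 62.2, 1.47, 319 and 147, with both pollinated libraries above both receptive ones. Gall flowers were higher at each stage, by 42.2 (31.9 to 57.1) in receptive and 2.16 (2.12 to 2.21) in pollinated flowers, although the former rests on 49 reads in receptive seed flowers. Locus 9372, also beta-galactosidase protein 1, had 34.1, 18.9, 173 and 124. Its values separated the stages, and no gall to seed ratio was called. Locus 16740 had 43.6, 12.5, 15.2 and 10.6, so receptive gall flowers stood alone at 3.48 times (3.20 to 3.80) receptive seed flowers. The most abundant, Locus 12259 (beta-galactosidase 3, 426 bp), had 732, 423, 378 and 355. Receptive gall flowers were the highest, and none of its ratios reached 2.

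XTH summed to 1319 and 595 RPM in receptive gall and seed flowers and 1046 and 911 in pollinated gall and seed flowers. The gall to seed ratio was 2.21 (2.16 to 2.27) in receptive and 1.15 (1.13 to 1.17) in pollinated flowers, so most of the gap was seen before foundress introduction. Locus 588 (protein 9) had RPKM of 230, 106, 136 and 145, and only receptive gall flowers stood above the others, at 2.17 times (2.07 to 2.28) receptive seed flowers. Locus 200 (XTH-21) had 160, 61.0, 92.2 and 136, with gall flowers above seed flowers when receptive, at 2.62 times (2.45 to 2.80), and below them when pollinated, where no call was made. Locus 20842 (protein 28-like) had 140, 87.2, 127 and 98.5 and was not called. Locus 1780, which has no protein number in its description, had 125, 17.8, 57.7 and 27.8, and gall flowers were higher at both stages, by 7.04 (6.39 to 7.78) and 2.08 (1.96 to 2.21). Locus 416 (protein 23) had 34.6, 35.0, 44.7 and 10.6. Its receptive libraries were level, and pollinated seed flowers were the low library, 4.23 times (3.79 to 4.73) below pollinated gall flowers.

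Expansins did not favour either flower type as a class. Their sum was 969 and 934 RPM in receptive gall and seed flowers and 1130 and 1240 in pollinated gall and seed flowers, with ratios of 1.04 (1.02 to 1.06) and 0.912 (0.899 to 0.925). Within the class, 2 were called higher and 2 lower in receptive gall flowers, and 3 higher and 3 lower in pollinated gall flowers. The background in pollinated flowers was 6.87% called higher and 2.85% called lower.

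Alpha-expansin 1 (Locus 6850), the most abundant expansin longer than 300 bp, had RPKM of 344, 146, 232 and 240. Receptive gall flowers were 2.35 times (2.23 to 2.47) above receptive seed flowers, and the pollinated libraries were level. Alpha-expansin 5 (Locus 1268) had 31.1, 7.11, 39.2 and 6.88, so both gall libraries were above both seed libraries. Its ratios were 4.37 (3.65 to 5.27) in receptive and 5.69 (4.99 to 6.53) in pollinated flowers. The beta-expansin precursor (Locus 1860), of the branch first known from grass pollen, ran the other way, with 40.8, 138, 70.0 and 235. Seed flowers were 3.37 times (3.18 to 3.57, adjusted p = 4.3e-08 by Kal's Z-test) above gall flowers when receptive and 3.36 times (3.24 to 3.48, adjusted p = 1.1e-18 by Kal's Z-test) when pollinated. Locus 31145, an expansin fragment of 110 bp outside the naming rule, had 28.5, 113, 86.8 and 305, and seed flowers were again above gall flowers at both stages. Locus 7624, described as expansin only, had 128, 115, 73.9 and 194, and was called only after foundress introduction, at 2.63 times (2.52 to 2.75) higher in seed flowers.

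Alpha-expansin 11 (Locus 3414) had RPKM of 25.2, 18.0, 141 and 68.7, and a further alpha-expansin 1 (Locus 755) had 51.4, 39.2, 136 and 52.4. Pollinated gall flowers were the highest library for both. Neither differed past the threshold between receptive flower types, and pollinated gall flowers were 2.05 times (1.95 to 2.15) and 2.59 times (2.46 to 2.72) above pollinated seed flowers. Expansin-like a3 (Locus 10595) had 54.4, 105, 41.5 and 37.5, with receptive seed flowers apart. Its receptive gall to seed ratio of 0.516 did not reach the minimum ratio.

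Pollen transcripts were looked at because a beta-expansin and 4 of the extensins carry descriptions linked to pollen. The 17 pollen transcripts outside the members took 597 and 640 RPM in receptive gall and seed flowers and 506 and 458 in pollinated gall and seed flowers, and 9 of them were above the RPKM minimum. In pollinated against receptive flowers, 0 of these were called in gall flowers, and 0 were called higher and 2 lower in seed flowers. With 9 transcripts, 0 is near the backgrounds of 4.52% called higher in gall and 10.6% in seed flowers. The backgrounds called lower were 3.44% in gall and 6.79% in seed flowers.

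Of the members called between gall and seed flowers, 2 extensins had the widest ratios at each stage. Locus 10755 (821 bp) had RPKM of 262 and 2.94 in receptive gall and seed flowers and 75.1 and 2.59 in pollinated gall and seed flowers. Both gall libraries were far above both seed libraries. Its ratio was 89.1 (61.6 to 134, adjusted p = 3.0e-66 by Kal's Z-test) in receptive and 29.1 (21.8 to 39.6, adjusted p = 2.2e-14 by Kal's Z-test) in pollinated flowers, on 28 and 47 reads in the seed libraries. A shorter extensin-like transcript outside the naming rule, Locus 1527 (252 bp), had 486, 7.88, 140 and 7.17 with the same order. Whether these are pieces of the same gene was not tested, because no transcript sequence was analysed here. The most abundant extensin, Locus 30985, is only 153 bp long and had 917, 558, 673 and 937, with no call. It had more reads than any other extensin in every library except receptive gall, and without it the class ratio went from 4.19 to 10.8 in receptive and from 1.35 to 5.95 in pollinated flowers. Of the pollen Ole e 1 and extensin family proteins, Locus 8285 had 8.59, 8.71, 8.97 and 9.04, nearly the same in every library. Locus 38847 had 1.32, 15.3, 0.524 and 1.59, so receptive seed flowers stood alone at 11.6 times (8.24 to 16.5) receptive gall flowers, below the RPKM minimum.

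Endoglucanases, beta-xylosidases and inhibitors had no call between flower types. Few could be called, since 1 of the 7 endoglucanases, 3 of the 3 beta-xylosidases and 0 of the 3 inhibitors were above the RPKM minimum. Endoglucanase 24-like (Locus 159) had RPKM of 59.9, 35.6, 41.7 and 54.8, and took most reads of its class. Endoglucanase 11-like (Locus 8044) had 17.2, 4.19, 13.2 and 5.75, higher in both gall libraries, and endoglucanase 17 (Locus 11329) had 3.14, 7.35, 2.40 and 4.99, higher in both seed libraries. Both lie below the minimum. Among the inhibitors, which block microbial enzymes that attack xyloglucan, Locus 13966 had 2.25, 0.332, 1.70 and 0.347. Locus 30447 had 0.747 and 0.508 in receptive and pollinated gall flowers and no read in either seed library.

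After foundress introduction, 10 members were called higher in pollinated gall than in pollinated seed flowers, where the background was 6.87%, and 3 were called lower, where it was 2.85%. The 3 lower were all expansins. Those higher were 3 expansins, 2 XTH, 2 extensins, 1 cellulose synthase, 1 COBRA transcript and 1 beta-galactosidase. The median log2 ratio was 0.28 over 67 members and -0.13 over all transcripts. The synthesis classes summed to 1.23 times (1.22 to 1.24) and the loosening classes to 1.21 times (1.20 to 1.21) the level of pollinated seed flowers.

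Gall flowers were higher at both stages for 7 of the 56 members above the minimum (12.5%), against 3.75% of all transcripts above it. These were Locus 1085, Locus 10755, Locus 1527, Locus 1780, Locus 1268, Locus 2588 and Locus 3008. The call was made in receptive flowers only for 18 members (32.1%), against 12.9% of all transcripts. It was made in pollinated flowers only for 3 (5.36%; Locus 3414, Locus 416 and Locus 755), against 3.05%, so these are near the background. No member was called in opposite directions at the 2 stages, which is near the background. Of all transcripts above the minimum, 20 (0.192%) went from higher to lower in gall flowers and 8 (0.0767%) from lower to higher. An additive edgeR model over the 4 libraries, with flower type and stage as terms and 1 residual degree of freedom, called 0 of 92 members tested between gall and seed flowers by its quasi-likelihood test. The background was 0% of 27007 transcripts in either direction. At an unadjusted p under 0.05, 29 members were higher and 4 lower in gall flowers, against 9.48% and 2.88% of all transcripts. The lowest adjusted p of that edgeR test was 0.080, for Locus 10755 and Locus 1527, and DESeq2's Wald test on the same design called 12 of 85 members tested higher and 1 lower, against 4.24% and 0.45% of 22457 transcripts.

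**Figure D3:**
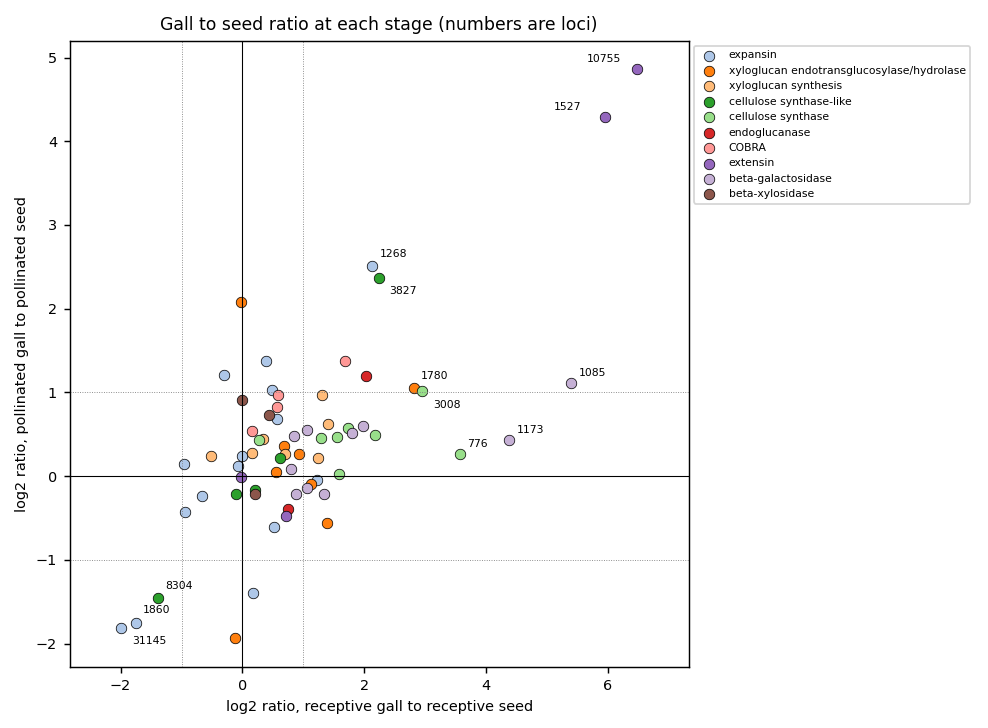
Log2 RPKM ratio of gall to seed flowers in receptive (x axis) and pollinated (y axis) flowers for 66 members with at least 10 reads in each library and a mean RPKM above 5, coloured by class, with dotted lines at a ratio of 2 in either direction. Extensins Locus 10755 and Locus 1527 lie at the upper right and the expansins Locus 1860 and Locus 31145 at the lower left, while Locus 776 and Locus 1173 lie far right and close to the x axis.

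The gap between gall and seed flowers was narrower in pollinated than in receptive flowers for cellulose synthases, beta-galactosidases, extensins, XTH and xyloglucan glycosyltransferases. Dividing the pollinated by the receptive gall to seed ratio gave 0.355 (0.345 to 0.366) for cellulose synthases, 0.369 (0.360 to 0.378) for beta-galactosidases, 0.321 (0.301 to 0.343) for extensins and 0.519 (0.504 to 0.534) for XTH. Without Locus 30985 the extensin value was 0.551. For expansins it was 0.879 (0.857 to 0.901) and for Csl transcripts 0.922 (0.901 to 0.943), with class ratios near 1 in receptive flowers and at 0.912 for both in pollinated flowers, so here the gap was not narrower. Without the member with most reads the expansin value was 1.12. COBRA transcripts gave 1.15 (1.10 to 1.20) and beta-xylosidases 1.39 (1.31 to 1.48), so in these the gap was wider in pollinated flowers. For single members it was 0.0648 (0.0594 to 0.0706) for Locus 1173 and 0.101 (0.0911 to 0.112) for Locus 776. The intervals cover counting error only. Over all transcripts too, fewer were called between flower types in pollinated (6.87% higher and 2.85% lower) than in receptive flowers (17.0% and 15.1%). In lists outside the members the same division gave 0.374 for callose synthases and 0.625 each for pectin-modifying and sugar nucleotide enzymes. For arabinogalactan proteins the gall to seed ratio went from 0.514 to 0.885. A narrower gap was therefore not particular to these wall classes.

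Pollinated and receptive flowers were then compared within each flower type, pairs that draw on the same 4 libraries as the comparisons above. In gall flowers, 7 members were called higher in pollinated than in receptive libraries, against a background of 4.52%, and 6 lower, against 3.44%. In seed flowers, 13 were called higher, against 10.6%, and 2 lower, against 6.79%. The median log2 ratio was -0.17 for members and 0.02 for all transcripts in gall flowers, and 0.46 and 0.06 in seed flowers. Among transcripts longer than 2000 bp it was -0.17 for members and -0.02 for all in gall flowers, and 0.61 and 0.28 in seed flowers. Cellulose synthases stood in sum at 0.658 times (0.652 to 0.664) the receptive value in gall flowers, and all 8 with a mean RPKM above 5 were lower, although only Locus 4604 was called, at 2.11 times (2.05 to 2.17) lower. In seed flowers 7 of these 8 were higher, as were 70.0% of all transcripts longer than 2000 bp. The class sum was 1.85 times (1.80 to 1.90) the receptive one. The calls there were Locus 776, at 5.88 times (5.32 to 6.53), and Locus 3008, at 2.96 times (2.67 to 3.29).

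Across both flower types, 6 of the 56 members (10.7%) were called higher in pollinated flowers, against 1.32% of all transcripts above the minimum. XTH protein 2 (Locus 5646) had RPKM of 0.283 and 0.311 in receptive gall and seed flowers and 35.5 and 32.3 in pollinated gall and seed flowers. The receptive libraries held 32 and 8 reads, and the pollinated ones 4648 and 1585. It was 126 times higher (89.0 to 184) in gall and 104 times higher (52.5 to 241) in seed flowers, and gall and seed flowers were level at each stage. It was the only member called by the additive model (log2 6.83, adjusted p = 0.010 by edgeR's quasi-likelihood test), where the background was 0.159% called higher and 0.0444% lower. At an unadjusted p under 0.05 that test had 12 of 92 members higher and 4 lower in pollinated flowers, against 2.99% and 2.47% of all transcripts, so the count of lower members is near the background.

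Beta-galactosidase Locus 1085 was 5.13 times higher (5.01 to 5.24) in pollinated than in receptive gall flowers and 100.0 times higher (75.6 to 135) in seed flowers. Locus 9372, of the same description, was 5.08 times (4.95 to 5.22) and 6.57 times higher (6.11 to 7.07). Alpha-expansin 11 (Locus 3414) was 5.57 times (5.28 to 5.87) and 3.81 times higher (3.34 to 4.35). The sixth was the short Locus 31145, at 3.05 and 2.70 times. Beta-xylosidase 1 (Locus 2623), an enzyme that removes xylose from xylans and arabinoxylans, had RPKM of 5.29, 3.91, 40.8 and 24.5. Both pollinated libraries were above both receptive ones, by 7.71 times (7.17 to 8.30) in gall and 6.27 times (5.27 to 7.52) in seed flowers. The other members of its class did not share this. Beta-xylosidase 3 (Locus 2478) had 25.3, 25.3, 51.5 and 27.4, with pollinated gall flowers apart, and Locus 28036 had 32.8, 28.5, 17.6 and 20.5.

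No member was called lower after foundress introduction in both flower types, which is near the background of 1.14% of all transcripts above the minimum. Extensin Locus 10755 was 3.49 times lower (3.36 to 3.62) in pollinated than in receptive gall flowers, while its seed flower values were 2.94 and 2.59. Beta-galactosidase Locus 16740 was 2.87 times lower (2.76 to 2.99) in gall flowers and XTH Locus 1780 was 2.17 times lower (2.11 to 2.23), and neither was called in seed flowers. Beta-galactosidase Locus 1173 was 3.91 times lower (3.85 to 3.98, adjusted p = 1.4e-35 by Kal's Z-test) in gall flowers and 3.95 times higher (3.63 to 4.30, adjusted p = 6.0e-10 by Kal's Z-test) in seed flowers. It was the only member called in opposite directions, and 66 of all transcripts above the minimum (0.633%) were called as it was. In seed flowers alone, expansin-like a3 (Locus 10595) was 2.81 times lower (2.59 to 3.04) and XTH Locus 416 was 3.31 times lower (2.90 to 3.78). The 6 called higher in seed flowers alone were Locus 1401, Locus 200, Locus 2956, Locus 3008, Locus 3771 and Locus 776, and this 10.7% of the members is near the 8.61% of all transcripts. Alpha-expansin 1 (Locus 755) was the only member called higher in gall flowers alone, at 2.63 times (2.54 to 2.73).

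**Figure D4:**
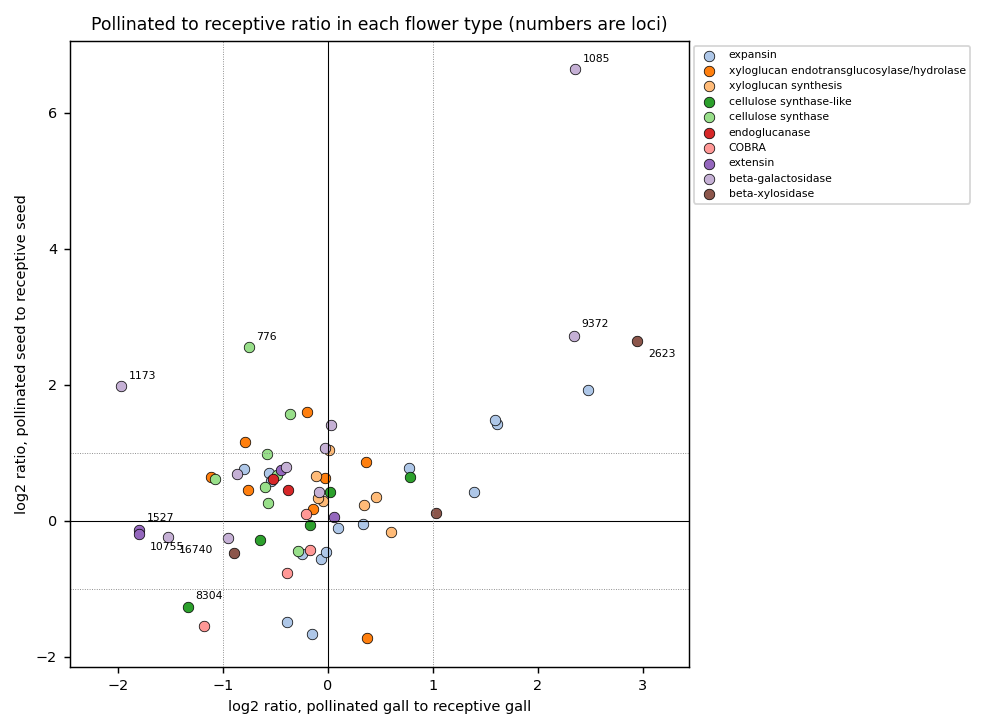
Log2 RPKM ratio of pollinated to receptive flowers in gall (x axis) and seed (y axis) flowers for the same 66 members, coloured by class, with dotted lines at a ratio of 2 in either direction. Locus 1085, Locus 9372 and Locus 2623 lie at the upper right, Locus 1173 lies at the upper left, and XTH Locus 5646 is not drawn because receptive seed flowers had 8 reads.

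Loosening and synthesis were set against each other within each library. By summed RPKM, which corrects for length, the loosening classes stood at 2.54 and 2.59 times the synthesis classes in receptive gall and seed flowers, and at 2.85 and 3.50 times in pollinated gall and seed flowers. By summed reads the ratio was, in the same order, 1.30 (1.29 to 1.30), 1.11 (1.09 to 1.13), 1.66 (1.65 to 1.67) and 1.70 (1.68 to 1.71). On both scales the pollinated libraries were above the receptive ones, while the order of the receptive libraries differed. In gall flowers the loosening reads stood at 0.999 times (0.994 to 1.00) the receptive sum and the synthesis reads at 0.780 times (0.776 to 0.785). By summed RPKM both were below the receptive sum there, at 0.903 and 0.806 times. In seed flowers both sums of reads were higher after foundress introduction, loosening by 1.79 times (1.77 to 1.82) and synthesis by 1.17 times (1.16 to 1.19), and by summed RPKM the values were 1.55 and 1.15 times. Without beta-galactosidases the ratio of reads was 0.635, 0.795, 0.793 and 0.949, and pollinated gall flowers were then level with receptive seed flowers.

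Other wall genes gave a setting for these values. Enzymes that supply sugar nucleotides, the substrates of polysaccharide synthesis (19 transcripts), took 3026, 1227, 2195 and 1424 RPM in receptive gall, receptive seed, pollinated gall and pollinated seed flowers. Of the 10 above the RPKM minimum, 6 were called higher and 0 lower in receptive gall than in receptive seed flowers. For this and the next lists the background in receptive flowers was 17.0% called higher and 15.1% lower. Pectin-modifying enzymes (94 transcripts, 31 above the minimum) took 4690, 2327, 3805 and 3021, with 13 called higher and 1 lower in receptive gall flowers. In pollinated gall flowers against pollinated seed flowers the calls were 6 and 3, against backgrounds of 6.87% and 2.85%. Callose synthases (8 transcripts, 4 above the minimum) took 1738, 731, 1423 and 1600, with 2 called higher and 1 lower in receptive gall flowers. Arabinogalactan proteins (17 transcripts), glycoproteins of the cell surface, ran the other way in sum with 509, 991, 620 and 700. Of the 8 above the minimum, 1 was called higher and 2 lower in receptive gall flowers, which is near the background. Wall receptor kinases (33 transcripts, 8 above the minimum) took 960, 653, 700 and 753, with 4 called higher and 1 lower. Of the 10 alpha-xylosidases and fucosidases, 1 was above the minimum and 0 were called in any comparison. Floral organ identity transcripts (13, 8 above the minimum) took 736, 570, 693 and 860 RPM, with 6 called higher and 1 lower in receptive gall than in receptive seed flowers.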

How the data were processed

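RNA from 4 pooled flower samples was sequenced as paired reads. The authors removed the first 10 bp and reads under 75 bp (FastQC 0.10.0 and Trimmomatic 0.22 are named in the submitters' processing notes), assembled the 4 libraries jointly with Oases, retained for each locus its longest sequence, and mapped the reads with CLC Genomics Workbench. Deposited read counts per transcript, for all and for uniquely mapped reads, were used as the authors gave them. The RPKM was deposited by the authors, and values rebuilt from counts and lengths differed from it by at most 5.0e-04. A further 12 per-library columns, 3 for each library, were not used.

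Kal's Z-test was computed on RPKM as a share of the summed RPKM of the library (991149, 1193080, 965384 and 971801 in receptive gall, receptive seed, pollinated gall and pollinated seed flowers). Additive models were fitted with edgeR 4.0.16 (TMM, filterByExpr, quasi-likelihood test) and DESeq2 1.42.0 in R 4.3.3, and the rest was computed with Python 3.11.15, scipy 1.17.1 and matplotlib 3.10.9. The computation was tested on simulated data. Intervals are exact conditional binomial intervals, and a count of 0 was set to 3 reads for a bound. Both mates of a pair may have been counted, and the intervals would then be too narrow. Medians used transcripts with a mean RPKM above 5.

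Named singly were the 3 members of at least 300 bp with the highest mean RPKM in each class, per comparison and direction the 3 called members of largest ratio that had at least 10 reads in both libraries, and members called by the edgeR model, 39 in all; members of small call groups and others said to be outside the rule were named after their values were seen. The members, classes and lists were chosen with earlier results of these data known. The words xyloglucosyl transferase and xyloglucanase (XTH) and cellulose synthase D-like (Csl) were added after the descriptions were seen. Alternatives were other tests, scalings, minimums, uniquely mapped reads, 1 added to each RPKM, removal of the trend with length in 20 bins, and members of at least 500 bp. Transcript sequences were not analysed here.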

Additional observations from a re-analysis of the deposited data

Results flagged for a closer look

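Beta-galactosidase 3-like (Locus 1173) was called in opposite directions after foundress introduction in the flower types. Its pollinated to receptive ratio was 0.256 (0.251 to 0.260) in gall flowers and 3.95 (3.63 to 4.30) in seed flowers. The difference between these ratios exceeds counting error, but with 1 library per flower type it was not tested against the spread between samples.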

How the results depend on the processing

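No paired analysis was possible because each flower type had 1 library at each stage and so no replicate numbers to pair by, and for the same reason no replicate could be left out. The additive model, with stage as a term, compares gall with seed flowers within stages over these 4 libraries. Of 112 alternative values of the counts of called members, 87 stayed within 1.5 times the main count. A count has no direction that could reverse, and a like count can hold other members. With edgeR's exact test at an assumed coefficient of variation of 0.4, the calls in receptive gall against receptive seed flowers were 8 higher and 1 lower. The shares of all transcripts tested were 2.92% and 1.01%. Between pollinated gall and seed flowers, 8 of 115 members were higher and 0 lower (17.0% and 0.381%). Of these 8, 3 were also calls of the Z-test. In pollinated against receptive gall flowers, 14 of 115 members were higher and 1 lower (18.9% and 0.61%). The transcripts tested in both comparisons of pollinated gall flowers included those with reads in that library alone, 11851 of all transcripts but 4 members. The 17.0% and the 18.9% are therefore not like backgrounds for the members. In pollinated against receptive seed flowers the calls were 2 higher and 0 lower (0.968% and 0.55%). With the length trend removed, 4 members were lower in receptive gall than in receptive seed flowers (1 among members of at least 500 bp). In pollinated against receptive gall flowers, 13 were lower with no minimum ratio. In pollinated against receptive seed flowers, 4 were lower with no test, with the Z-test on read counts or with the length trend removed. With TMM or DESeq2 size factors 1 was lower. The number of all transcripts called lower moved too, up with no minimum ratio, no test or the Z-test on read counts and down otherwise. By share called lower, members stood above all transcripts with no minimum ratio. They also did so slightly between seed flowers with the length trend removed, and stood below in the rest of these settings. In the additive model, gall against seed flowers gave 2 higher with DESeq2 size factors (0.0444% of all transcripts tested), 19 higher and 3 lower of 115 members with no count filter (7.48% and 0.395%), and 12 higher and 1 lower of 85 with DESeq2's Wald test (4.24% and 0.45%). Pollinated against receptive flowers gave 3 higher with DESeq2 size factors (0.348%), 12 higher and 2 lower with no count filter (5.95% and 0.556%), 5 higher with the Wald test (1.75%) and 3 higher with uniquely mapped reads (0.292%). The cause of these moves was not tested.

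TMM adds 0.23 to the log2 ratio of gall to seed flowers in receptive and 0.19 in pollinated flowers, and shifts the others by -0.02 and 0.02. Class ratios that reversed were those of the 3 inhibitors, which have few reads. In receptive gall against receptive seed flowers they went from 3.13 to 0.622 with summed RPKM and 0.397 without the member with most reads, and in pollinated against receptive seed flowers from 0.448 to 1.05 among members of at least 500 bp. Without Locus 159 the endoglucanase ratio went from 0.813 to 1.49 between pollinated gall and seed flowers and from 1.47 to 0.940 in pollinated against receptive seed flowers. Without Locus 30985 the extensin ratio of pollinated to receptive seed flowers went from 1.38 to 0.593 (0.573 among members of at least 500 bp), and the gall to seed ratios among members of at least 500 bp were 7.52 in receptive and 4.54 in pollinated flowers. The beta-galactosidase ratio of pollinated to receptive seed flowers was 1.62 by summed RPKM in place of 2.77. With the length trend removed, the receptive gall to seed ratio became 142 for Locus 10755, 2.90 for Locus 12259 and 0.151 for Locus 38847.

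The loosening to synthesis ratio in receptive gall, receptive seed, pollinated gall and pollinated seed flowers was 0.635, 0.795, 0.793 and 0.949 without beta-galactosidases, 2.42, 1.43, 2.73 and 2.60 without cellulose synthases, and 2.54, 2.59, 2.85 and 3.50 by summed RPKM. These 3 settings were chosen after seeing the data. None of the ratios of members named singly reversed in 447 alternative values, but 154 moved outside their counting intervals. These were 60 of 149 with TMM and 94 of 149 with the length trend removed. Of 262 alternative class ratios, 126 moved outside theirs and 3 reversed, and 26 of 44 moved with TMM and 30 of 44 with DESeq2 size factors. With uniquely mapped reads all 149 named and all 44 class ratios stayed within their counting intervals. Little could change there, since only 0.102% of member reads also matched other transcripts.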
